A study of Homo sapiens with 8 samples.

Results

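The cytosolic heat shock proteins are the chaperones that fold and protect other proteins in the cytosol. Their 10 genes were taken by gene number from a deposited table of 19892 genes, and all 10 were found: HSPA1A, HSPA1B, HSPA4, HSPA8, HSPH1, HSP90AA1, HSP90AB1, DNAJA1, DNAJB1 and HSPB1. The cells were MDA-MB-231, a triple-negative breast cancer line. One arm received control siRNA and the other ADAR1 siRNA, which targets the RNA-editing enzyme that turns adenosine into inosine (gene ADAR). The title of the series asks how ADAR1 bears on transcriptional output. Each siRNA had 2 Input libraries, which measured RNA, and 2 Ribo-seq libraries, which measured ribosome-protected fragments (footprints), so 8 libraries formed 4 groups. Cells of 1 line were used throughout, and no untransfected group was analysed. The sources used here do not give the siRNA sequence, its dose or the hours between transfection and harvest. The labels do not say whether replicates came from separate cultures: p-values then measure only library-to-library spread, possibly technical. In a bulk lysate, a difference in every cell and one in some of the cells cannot be told apart.

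HSP70 proteins bind exposed hydrophobic stretches of unfolded chains and release them in a cycle driven by ATP. HSP40 proteins (DNAJ) deliver substrates and speed up ATP hydrolysis, and HSP110 proteins help exchange the nucleotide. HSP90 acts later, on partly folded kinases, receptors and other clients, while small heat shock proteins hold unfolded chains without ATP. HSF1, the main factor of the heat shock response, binds heat shock elements, which are repeats of the unit GAA in alternating orientation, and tumour cells are known for keeping several of these chaperones abundant.

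The elements near the start sites are shown as a description of the genes. The genes were chosen as heat shock proteins, so a share of such elements above that of all genes is not independent of the choice. All 10 genes matched the RefSeq promoter table (GRCh38.p14), with 15 promoters, and the 250 bases before each start were searched. An element of 2 units, GAANNTTC or TTCNNGAA, stood in at least 1 promoter of 8 of the 10 genes. It stood in 11.6% of all 35116 promoters and 14.0% of all 27305 genes. An element of 3 units, GAANNTTCNNGAA or TTCNNGAANNTTC, contains one of the shorter ones and stood in 3 of the 10 genes, against 0.441% of all promoters and 0.557% of all genes. Together these letters cover both strands. HSPA4 and HSPH1 held neither form in this window. In the sequences below, with 20 flanking bases on either side, capitals mark the element, and each is read on the strand of its gene. One element per gene is shown: HSPA8, HSP90AA1, HSP90AB1 and DNAJB1 each held a second one in the same promoter, and that of HSP90AA1 lies in lower case in the flank shown. A match describes the letters only and is not a binding measurement.
HSPA1A, chr6:31815417-31815464, plus strand: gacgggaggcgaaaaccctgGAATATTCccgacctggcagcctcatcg
HSPA1B, chr6:31827613-31827660, plus strand: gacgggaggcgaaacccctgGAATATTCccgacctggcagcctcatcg
HSPA8, chr11:123062159-123062211, minus strand: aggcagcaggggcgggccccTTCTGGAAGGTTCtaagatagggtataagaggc
HSP90AA1, chr14:102087100-102087152, minus strand: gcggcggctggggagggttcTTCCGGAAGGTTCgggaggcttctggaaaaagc
HSP90AB1, chr6:44247811-44247863, plus strand: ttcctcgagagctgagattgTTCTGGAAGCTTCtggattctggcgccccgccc
DNAJA1, chr9:33025055-33025102, plus strand: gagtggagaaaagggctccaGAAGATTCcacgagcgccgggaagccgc
DNAJB1, chr19:14518447-14518494, minus strand: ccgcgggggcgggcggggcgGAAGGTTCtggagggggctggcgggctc
HSPB1, chr7:76302471-76302518, plus strand: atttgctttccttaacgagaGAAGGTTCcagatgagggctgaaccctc

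The 3-unit elements belong to HSPA8, HSP90AA1 and HSP90AB1, which were also the 3 members of highest RNA level. HSPA1A and HSPA1B carry the same element letters, and their upstream stretches had 235 identical bases of 251 aligned columns. The deposited estimated counts of HSPA1A and HSPA1B were fractional (over 1e-06 from a whole number) in 8 of 8 libraries, those of HSP90AA1 in 7, and those of HSPA4, DNAJA1, DNAJB1 and HSPB1 in 0. The sources used here do not say how reads that match several genes were shared out, so HSPA1A and HSPA1B are uncertain as separate genes.

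Total estimated counts were 15732757 to 17153716 per Input library and 10492223 to 14875465 per Ribo-seq library. ADAR RNA stood at 106.2 and 110.2 TPM (a level scaled for transcript length and library) in the control Input libraries, against 14.8 and 30.6 with ADAR1 siRNA. ADAR footprints stood at 19.1 and 20.3 TPM in the controls, and at 1.55 and 8.41 TPM after the siRNA. ADAR was thus lower in each library given its siRNA, more so in replicate 1 than in replicate 2. Its log2 difference was -2.26 ± 0.32 in RNA (SE; edgeR adjusted p = 0.0527) and -2.04 ± 0.47 in footprints (edgeR adjusted p = 0.0485). The mesenchymal genes VIM, CD44, AXL and FN1 were present at 113 TPM or more in the control Input libraries, while SPARC stood at 1.12 and 1.21 TPM. ESR1, PGR and CDH1, which this line is known to lack, and the immune markers PTPRC and CD3E were under 0.6 TPM. The luminal genes GATA3 (7.35 and 7.47 TPM) and ERBB2 (31.1 and 35.5 TPM) were detected.

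In the control cells the family was abundant in RNA but took a smaller share of the footprints. The 10 genes held 1.02% of the total TPM in both control Input libraries, and 0.274% and 0.337% in the control Ribo-seq libraries. HSPA8, HSP90AB1 and HSP90AA1 ranked 25, 30 and 33 of all genes by mean control Input TPM, whereas HSPA1A ranked 2215. Those 3 genes held 82.5% of the family's TPM in each control Input library. Translational efficiency, deposited as Ribo-seq TPM over Input TPM, had a median of 0.370 among 11988 genes with at least 1 TPM in control Input. HSPH1 had the lowest control mean of the members, 0.0907 (percentile 8.53), and HSPB1 the highest, 1.20 (percentile 86.0). The other 8 ran from HSP90AB1 at 0.220 (percentile 30.2) to DNAJA1 at 0.539 (percentile 64.4). From low to high, the order was HSPH1, HSP90AB1, HSPA1A, HSPA8, HSP90AA1, DNAJB1, HSPA4, HSPA1B, DNAJA1 and HSPB1. The control values of neighbours in that order overlapped except at 3 steps, above HSPH1, above HSP90AA1 and below HSPB1.

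**Figure D1:**
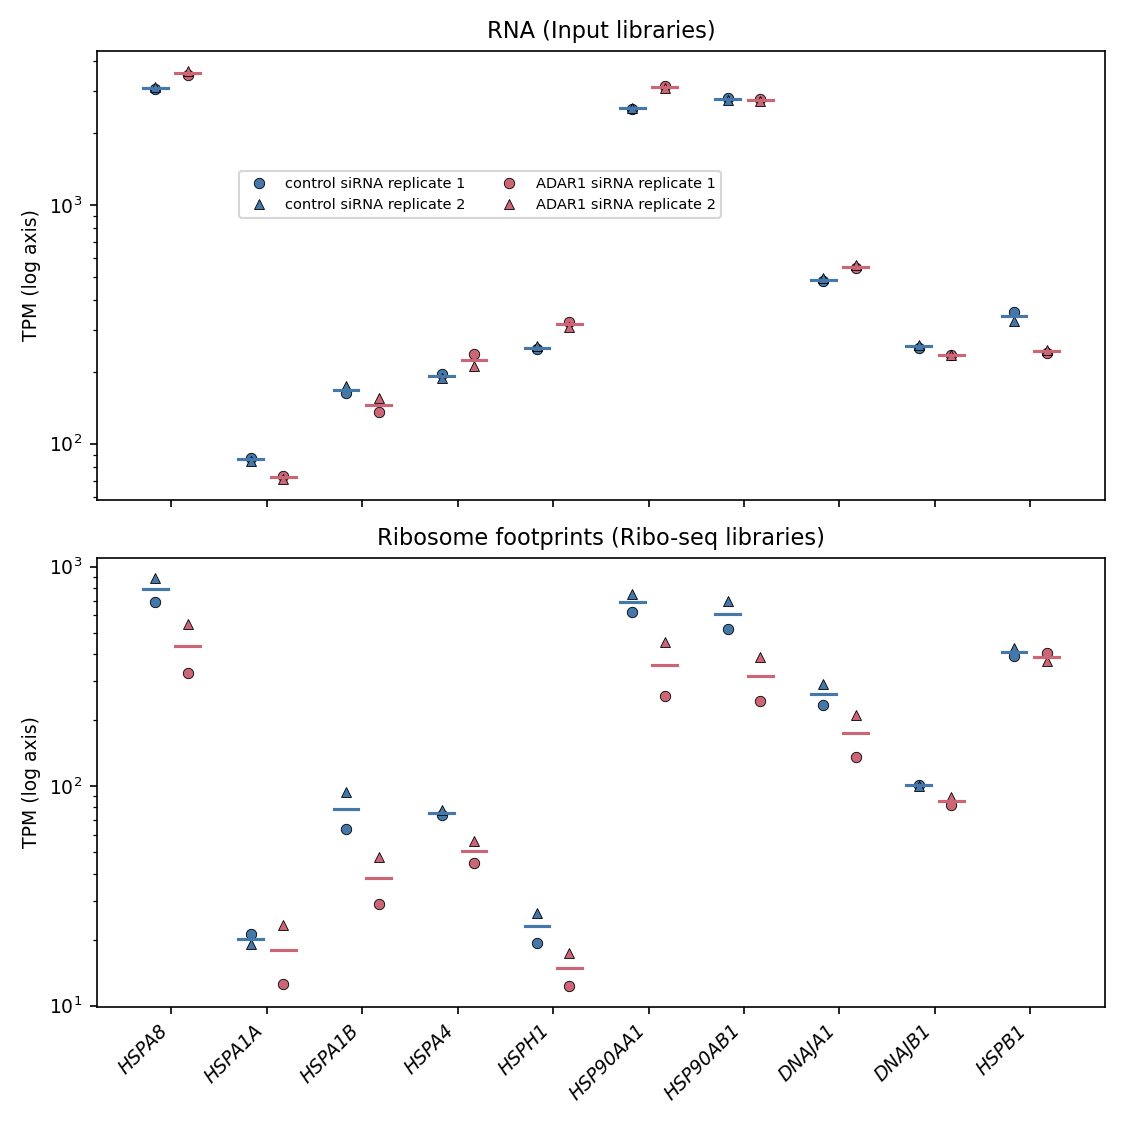
TPM (log axis) of the 10 genes in each library, RNA above and footprints below; circles and triangles are replicates 1 and 2, blue control siRNA, red ADAR1 siRNA, and lines are group means. The RNA groups lie close together, while the ADAR1 siRNA footprints lie below both controls for 8 of the 10 genes.

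After ADAR1 siRNA no member passed the test in RNA, and the signs of the differences were mixed. RNA levels of 5 members (HSPA8, HSPA4, HSPH1, HSP90AA1 and DNAJA1) were above both controls in both siRNA libraries, and those of 4 (HSPA1A, HSPA1B, DNAJB1 and HSPB1) were below both. Such separation is frequent: 29.2% of all genes tested were above and 27.9% below. With edgeR (quasi-likelihood test, Benjamini-Hochberg adjustment over 12644 genes), 0 of the 10 had an adjusted p under 0.05, against 0.253% of all genes. At an unadjusted p under 0.05, 4 members were higher and 2 lower, against 11.8% and 13.5% of all genes. The median log2 fold change of the members was 0.07, and that of all genes was 0.00.

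HSPH1, the main cytosolic HSP110 (NCBI gene 10808, chr13:31134973-31162388), had the largest positive RNA value of the members. Its Input level was 249.7 and 256 TPM in the controls and 324 and 309 TPM after ADAR1 siRNA, a log2 difference of 0.31 ± 0.06 (SE; edgeR adjusted p = 0.0707). HSP90AA1, the inducible cytosolic HSP90 (gene 3320, chr14:102080742-102139749), stood at 2535 and 2541 TPM against 3153 and 3099, a log2 difference of 0.28 ± 0.06 (edgeR adjusted p = 0.0713). For both genes the 2 siRNA libraries lay together, well above the controls. HSPB1, the small heat shock protein HSP27 (gene 3315, chr7:76302673-76304292), had the most negative value, with 356 and 328 TPM against 241 and 246, a log2 difference of -0.51 ± 0.08 (edgeR adjusted p = 0.0647). HSP90AB1, the constitutive cytosolic HSP90 (gene 3326, chr6:44246194-44253883), was level in RNA, at 2801 and 2748 TPM against 2771 and 2724, groups that overlap.

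DESeq2 called 3 members in RNA, HSPH1 and HSP90AA1 higher and HSPB1 lower, against 3.45% of all genes, and limma-voom called 0. The RNA count rested on single libraries: 7 members were called without ADAR1 siRNA Input replicate 1 (31.9% of all genes) and 10 without replicate 2 (42.1%), while 0 were called without either control library. A library left alone in its group is assumed there to vary like the other group. Over all genes, the ADAR1 siRNA Input libraries differed more from each other than the control Input libraries did.

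Footprints were lower for most of the family. HSPA1B, HSP90AA1 and HSP90AB1 fell past the test, 3 of 10 members, against 1.67% of all 12000 genes called lower, and no member rose. Among the 814 genes of at least 200 TPM in control Input, 7% were called lower, as were 2 of the 7 members at that level. For 8 of the 10 genes both siRNA libraries lay below both controls, against 31.2% of all genes, and at an unadjusted p under 0.05 there were 7 lower members, against 11.3%. The members' median log2 fold change was -0.57, with 0.05 for all genes. Fewer footprints on a gene is a share of each library: the total amount of translation was not measured.

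Both cytosolic HSP90 genes fell alike. HSP90AA1 footprints stood at 624 and 749 TPM in the controls and at 258 and 455 TPM after ADAR1 siRNA. This was 1.83-fold lower, a log2 change of -0.87 ± 0.20 (SE; edgeR with Benjamini-Hochberg adjustment, adjusted p = 0.0460). HSP90AB1 footprints stood at 521 and 700.2 TPM in the controls, and at 244 and 389 TPM after the siRNA. They were 1.84-fold lower, at -0.88 ± 0.19 on the log2 scale (edgeR adjusted p = 0.0443). In both genes the siRNA libraries lay below the controls, with replicate 1 the lowest of the 4, and no overlap.

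Among HSP70 genes, HSPA8, the constitutive cytosolic HSP70 (HSC70; gene 3312, chr11:123057489-123062462), had 689.8 and 887 footprint TPM in the controls. After ADAR1 siRNA it had 328 and 546 TPM, a log2 difference of -0.77 ± 0.19 that missed the threshold (edgeR adjusted p = 0.0555). HSPA1B, a stress-inducible HSP70 (gene 3304, chr6:31827738-31830254), went from 63.6 and 94.0 TPM to 29.0 and 47.5. It was 1.95-fold lower, at -0.96 ± 0.22 on the log2 scale (edgeR adjusted p = 0.0460). Its near-identical neighbour HSPA1A (gene 3303, chr6:31815543-31817942) stood at 21.2 and 19.0 TPM against 12.6 and 23.4, groups that overlap. Set side by side, the pair therefore differed in whether footprints separated, although the share of their summed counts given to HSPA1A ran from 16.8% to 33.0% over the 4 Ribo-seq libraries. With counts of both summed, the log2 difference was -0.74 ± 0.21 and the call ended (edgeR adjusted p = 0.0733). The summed footprint level was 84.8 and 113.1 TPM in the controls and 41.6 and 70.9 TPM after the siRNA.

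The HSP110-type genes were also lower in both siRNA libraries without passing the test. HSPA4 (gene 3308, chr5:133052013-133106449), a nucleotide exchange factor for HSP70, had 73.8 and 77.8 footprint TPM in the controls against 44.5 and 56.3. Its log2 difference was -0.50 ± 0.14 (edgeR adjusted p = 0.0725). HSPH1 had 19.4 and 26.5 TPM against 12.3 and 17.3, at -0.56 ± 0.19 (edgeR adjusted p = 0.111). HSPH1 was thus the member with the largest positive RNA value and the sparsest footprints per RNA, and its footprint groups did not overlap.

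The 2 HSP40 genes gave different values. DNAJA1 (gene 3301, chr9:33025273-33039907) had 233 and 292 footprint TPM in the controls and 136 and 212 TPM after ADAR1 siRNA, a log2 difference of -0.58 ± 0.18 (edgeR adjusted p = 0.0840). DNAJB1 (gene 3337, chr19:14514769-14560391), the stress-inducible HSP40, had 101.2 and 100.6 TPM against 82.4 and 89.1, at -0.14 ± 0.14 (edgeR adjusted p = 0.582). Both siRNA libraries lay below both controls in each gene, but only narrowly for DNAJB1. HSPB1 footprints were 392 and 426 TPM against 405 and 373, which overlap, with a log2 difference of 0.03 ± 0.15 (edgeR adjusted p = 0.928). HSPB1 was the member whose RNA was lowest relative to control and whose footprints stayed within the control range or just below it.

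Of the 3 genes with a 3-unit heat shock element, HSP90AA1 and HSP90AB1 fell and HSPA8 missed the threshold. HSPA4 and HSPH1, with no element in the window searched, had values between those of DNAJB1 and HSPA8. HSPA1B, with 2 units, had the most negative value, and HSPB1, also with 2 units, was near 0. These are footprint values. In RNA, HSP90AA1, HSP90AB1 and HSPA8 had log2 values of 0.28, -0.03 and 0.19, and HSPA4 and HSPH1 had 0.20 and 0.31. Whether the elements bear on RNA or footprints was not tested. The 3 footprint calls ended when 1 control library was left out. Without control Ribo-seq replicate 2, HSPA1B stood at -0.68, HSP90AA1 at -0.75 and HSP90AB1 at -0.68 (log2), with edgeR adjusted p-values of 0.384, 0.270 and 0.376, and 0 members were called, against 0.25% of all genes called lower. Without control replicate 1, 4 were called lower, these 3 and HSPA8, against 1.84%. A library left out also moved HSPH1 to -0.33 (without control replicate 2), and moved HSPA8 to -0.51, HSP90AA1 to -0.58 and DNAJA1 to -0.38 (without ADAR1 siRNA replicate 1). Without ADAR1 siRNA replicate 1, 6 members were called lower, against 6.67% of all genes, and without ADAR1 siRNA replicate 2 there were 8, against 16% of all genes. DESeq2 called 6 members lower, against 4.89% of all genes, and limma-voom called only HSP90AB1, against 1.1%. Footprints of 9 members were lower in ADAR1 siRNA replicate 1 than in replicate 2, as ADAR itself was. In control replicate 1, 8 members were lower than in control replicate 2. In Input, where ADAR was also lower in ADAR1 siRNA replicate 1, 4 members were lower there. The share of all genes with these orders was not counted. Whether the amount of ADAR left bears on the members was not tested.

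**Figure D2:**
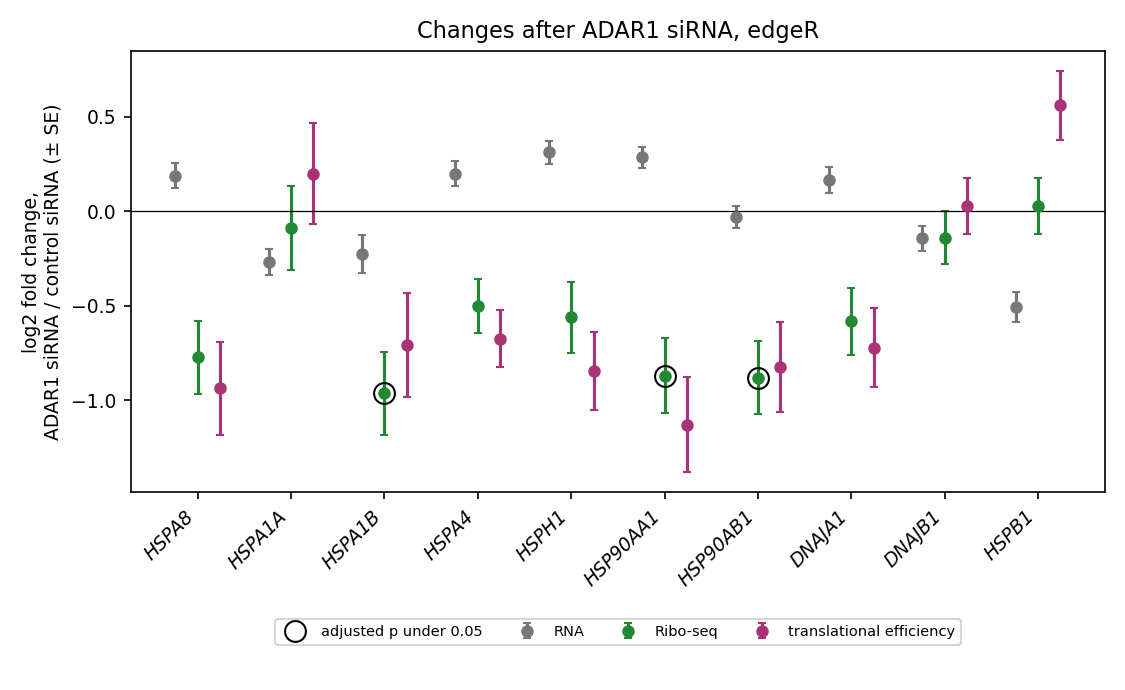
Log2 fold change, ADAR1 siRNA over control siRNA, of each gene in RNA (grey), footprints (green) and translational efficiency (purple), with SE bars from edgeR; black rings mark an adjusted p under 0.05. Ringed are the footprint values of HSPA1B, HSP90AA1 and HSP90AB1, between -0.96 and -0.87.

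As a share of each library, the family's summed RNA was higher and its summed footprints lower after ADAR1 siRNA. Summed Input TPM of the 10 genes was 10196 in each control library and 11220 and 11242 after ADAR1 siRNA, which is 110.2% ± 0.146 (SD, n = 2) of the control mean. As TMM-scaled CPM it was 110.8% ± 3.79, a wider spread than on the TPM scale. Summed footprint TPM was 2740 and 3373 in the controls and 1553 and 2208 after the siRNA, which is 61.5% ± 15.2 (SD, n = 2) of the control mean. The sums follow the 3 most abundant genes, which made up 82.5% to 84.1% of the family's TPM in Input and 53.5% to 69.3% in Ribo-seq. RNA above both controls together with footprints below both was found for 5 members: HSPA8, HSPA4, HSPH1, HSP90AA1 and DNAJA1. Among 11743 genes tested in both assays, 8.23% had it. With an unadjusted p under 0.05 in both assays, it was found for 4 members, all of these except DNAJA1, against 1.1% of all genes.

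Footprints per RNA were lower for most members, and the test of that ratio called none. The deposited translational efficiency lay below both controls in both siRNA libraries for 8 members, above them for HSPB1, and overlapped for HSPA1A. Of all genes, 28.3% lay below and 24.6% above. In edgeR's test of the interaction of assay and siRNA, 0 of 10 members had an adjusted p under 0.05, against 0.0463% of all 12953 genes. At an unadjusted p under 0.05 there were 7 lower members and 1 higher, against 9.48% and 13.2% of all genes. The members' median log2 value was -0.71, with 0.09 for all genes.

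HSP90AA1 had the most negative value. Its deposited efficiency was 0.246 and 0.295 in the controls and 0.0819 and 0.147 after ADAR1 siRNA, and the interaction gave -1.13 ± 0.25 on the log2 scale (edgeR adjusted p = 0.0567). HSPA8 went from 0.224 and 0.284 to 0.0936 and 0.150, at -0.94 ± 0.24 (edgeR adjusted p = 0.0668). HSPH1, already the least efficient member, stood at 0.0776 and 0.104 against 0.0379 and 0.0561, at -0.85 ± 0.21 (edgeR adjusted p = 0.0601). In all 3 genes the higher siRNA library stayed below the lower control. HSP90AB1 stood at 0.186 and 0.255 against 0.0880 and 0.143, with no overlap (-0.82 ± 0.24, edgeR adjusted p = 0.0834). HSPA4, DNAJA1 and HSPA1B had log2 values from -0.72 to -0.67.

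Log2 values were above 0 for HSPB1, HSPA1A and DNAJB1. HSPB1 had 1.10 and 1.30 in the controls and 1.68 and 1.52 after ADAR1 siRNA, a log2 value of 0.56 ± 0.18 that missed the threshold (edgeR adjusted p = 0.107). HSPA1A, whose groups overlap, gave 0.244 and 0.225 against 0.172 and 0.330, and 0.20 ± 0.27 on the log2 scale. DNAJB1 gave 0.40 and 0.39 against 0.35 and 0.38, and 0.03 ± 0.15 on the log2 scale. Thus DNAJB1 was nearly level in efficiency, with both siRNA values just under the controls. DESeq2 called 6 members lower, against 3.71% of all genes, and limma-voom called 0. Without ADAR1 siRNA Ribo-seq replicate 2, 8 members were called (HSPB1 higher, the other 7 lower), against 16.9% of all genes. Without ADAR1 siRNA Ribo-seq replicate 1, HSPA4 and HSP90AA1 were called lower, against 1.07% of all genes, and without any 1 of the other 6 libraries 0 were called.

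**Figure D3:**
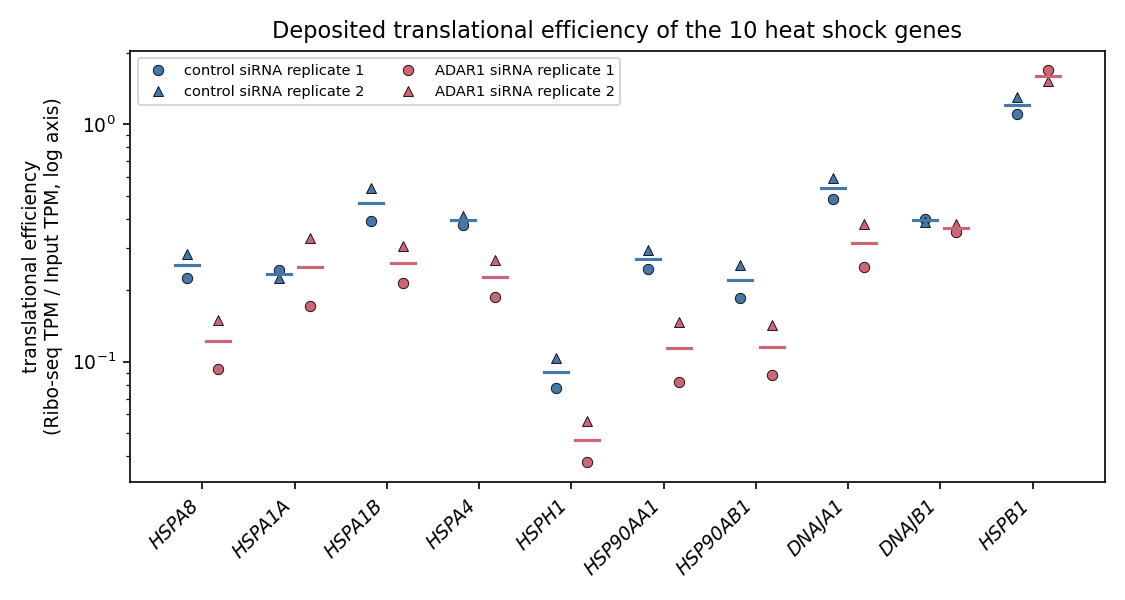
Deposited translational efficiency (Ribo-seq TPM over Input TPM, log axis) of the 10 genes per library; symbols as in the TPM plot, lines are group means. HSPH1 lies lowest, from 0.0379 to 0.104, and HSPB1 highest, from 1.10 to 1.68.

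Genes that work with the family were read from 6 further lists, 89 genes in all. In RNA, 76 of them were tested and 0 called by edgeR, with 27 at an unadjusted p under 0.05 (25.3% of all genes). DESeq2 called 1 (3.45% of all genes) and limma-voom 0. In translational efficiency, 77 were tested and 0 called by edgeR, with 21 at an unadjusted p under 0.05 (22.7% of all genes), 14 by DESeq2 (7.47% of all genes) and 0 by limma-voom. In footprints 7 of 76 were called by edgeR, 5 lower and 2 higher, against 3.54% of all genes. DESeq2 called 16 of them (8.15% of all genes) and limma-voom 3 (2.08%).

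The footprint values of HSP90 co-chaperones were mostly below 0. Of 20 tested, 18 had a negative footprint value, against 45.6% of all genes, and the median was -0.24. DESeq2 called 3 lower, against 4.89% of all genes. At an unadjusted edgeR p under 0.05, 8 were lower, against 11.3% of all genes. By edgeR 1 fell, against 1.67% of all genes called lower, and limma-voom called 0: the gene was STIP1 (HOP), the adaptor that links HSP70 to HSP90. STIP1 footprints stood at 153.9 and 184 TPM in the controls and 68.5 and 111 TPM after ADAR1 siRNA, at -0.84 ± 0.19 on the log2 scale (edgeR adjusted p = 0.0457). Its RNA was level, at 641 and 624 TPM against 658 and 621. UNC45A, a co-chaperone for myosin folding, had a footprint log2 value of -0.76 ± 0.19 (edgeR adjusted p = 0.0583). In RNA, PPP5C, a phosphatase bound to HSP90, had -0.30 ± 0.06 and TELO2, an adaptor for large kinases, had -0.62 ± 0.14, with edgeR adjusted p-values of 0.0767 and 0.0816.

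Other HSP70 and HSP110 genes had a median footprint value of -0.08 over 7 tested. By edgeR 1 fell, against 1.67% of all genes called lower. DESeq2 called 1 lower (4.89% of all genes) and limma-voom 1 (1.1%). HSPA4L, an HSP110-type relative of HSPA4, had 8.73 and 12.3 TPM in the control Ribo-seq libraries against 3.73 and 5.86, at -1.09 ± 0.21 (log2; edgeR adjusted p = 0.0376). Its RNA overlapped, at 70.1 and 66.9 TPM against 88.2 and 62.3. HSPA13, a microsomal HSP70, had footprint and RNA values of 0.38 ± 0.15 and 0.25 ± 0.07, HSPA14 -0.08 ± 0.15 and 0.15 ± 0.07, and none of these passed the test. HSPA6, a strictly inducible HSP70, was near the detection limit, with mean Input levels of 1.71 TPM in the controls and 1.13 TPM after the siRNA.

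HSP40 genes and other HSP70 partners had a median footprint value of -0.08 over 23 tested. By edgeR 0 were called, with 5 at an unadjusted p under 0.05 (24% of all genes). DESeq2 called 3 lower (4.89% of all genes) and limma-voom 0. DNAJA2, a close relative of DNAJA1, had -0.75 ± 0.19 (edgeR adjusted p = 0.0555) and DNAJC7 -0.61 ± 0.17 (edgeR adjusted p = 0.0662), both in footprints. STUB1 (CHIP), the ubiquitin ligase that acts on HSP70 clients, had a positive footprint value, 0.39 ± 0.17. In RNA, DNAJB4 had 0.39 ± 0.10 and BAG6 -0.32 ± 0.06, with edgeR adjusted p-values of 0.0920 and 0.0673. Of the other small heat shock proteins only HSPB8 had enough counts to be tested, with a footprint value of 0.28 ± 0.26.

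Among HSF factors and regulators, 7 were tested in footprints and 0 called by edgeR, DESeq2 or limma-voom. By edgeR 2 had an unadjusted p under 0.05, against 24% of all genes. HSF1 RNA stood at 113.8 and 119.4 TPM in the controls and 95.4 and 96.9 TPM after ADAR1 siRNA, at -0.30 ± 0.07 on the log2 scale (edgeR adjusted p = 0.0853). HSF2, a related factor, had footprint levels of 10.3 and 9.21 TPM against 3.41 and 7.93, at -0.75 ± 0.24 (edgeR adjusted p = 0.0963). Neither gene overlapped between groups in these values. Of all genes, 27.9% were lower without overlap in RNA and 31.2% in footprints. HSF2BP, which binds HSF2, had an RNA value of -0.59 ± 0.21, and HDAC6, a deacetylase that acts on HSP90, had a footprint value of -0.56 ± 0.21, neither past the test.

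Relatives of the family work in other compartments. The list of 18 paralogs was divided by compartment after its values were seen, so the division is a description. All 9 genes of the endoplasmic reticulum (ER) had a positive footprint value, from 0.22 to 0.77 with a median of 0.52, and 54.4% of all genes were above 0. DESeq2 called 6 of the 9 higher, against 391 of 12000 genes. At an unadjusted edgeR p under 0.05, 7 were higher, against 1518 of 12000 genes. By edgeR 2 rose, against 1.88% of all genes, and limma-voom called 1. These were DNAJC3 (0.70 ± 0.15, edgeR adjusted p = 0.0431) and DNAJC10 (0.77 ± 0.17, edgeR adjusted p = 0.0460), both ER-resident DNAJ proteins. DNAJB9, another, missed the threshold at 0.74 ± 0.19 (edgeR adjusted p = 0.0571). RNA values of DNAJC3, DNAJC10 and DNAJB9 were also above 0, at 0.26 ± 0.08, 0.12 ± 0.11 and 0.53 ± 0.12, none past the test. Their efficiency values were 0.46, 0.67 and 0.23 on the log2 scale, none past the test either. Of the 9 mitochondrial genes 3 fell, against 1.67% of all genes called lower, with 4 of the 9 above 0 and a median of -0.11. DESeq2 called 3 lower (4.89% of all genes) and limma-voom 1 (1.1%). HSPD1 (HSP60) had -0.97 ± 0.18, HSPA9 (the mitochondrial HSP70) -0.96 ± 0.22 and TRAP1 (the mitochondrial HSP90) -0.67 ± 0.16, with edgeR adjusted p-values of 0.0354, 0.0460 and 0.0495. TRAP1 was also lower in RNA, at -0.34 ± 0.07 (edgeR adjusted p = 0.0715), and its efficiency value was -0.30 ± 0.16. HSPA9 had 0.09 ± 0.06 in RNA and -1.03 ± 0.27 in efficiency. HSPD1, which helps fold imported proteins, stood at 115.9 and 159.4 footprint TPM in the controls against 55.2 and 77.1, while its RNA stood at 665 and 665 TPM against 821 and 766. HSPE1 (HSP10), its partner chaperonin, had a positive footprint value, 0.50 ± 0.16 (edgeR adjusted p = 0.102).

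**Figure D4:**
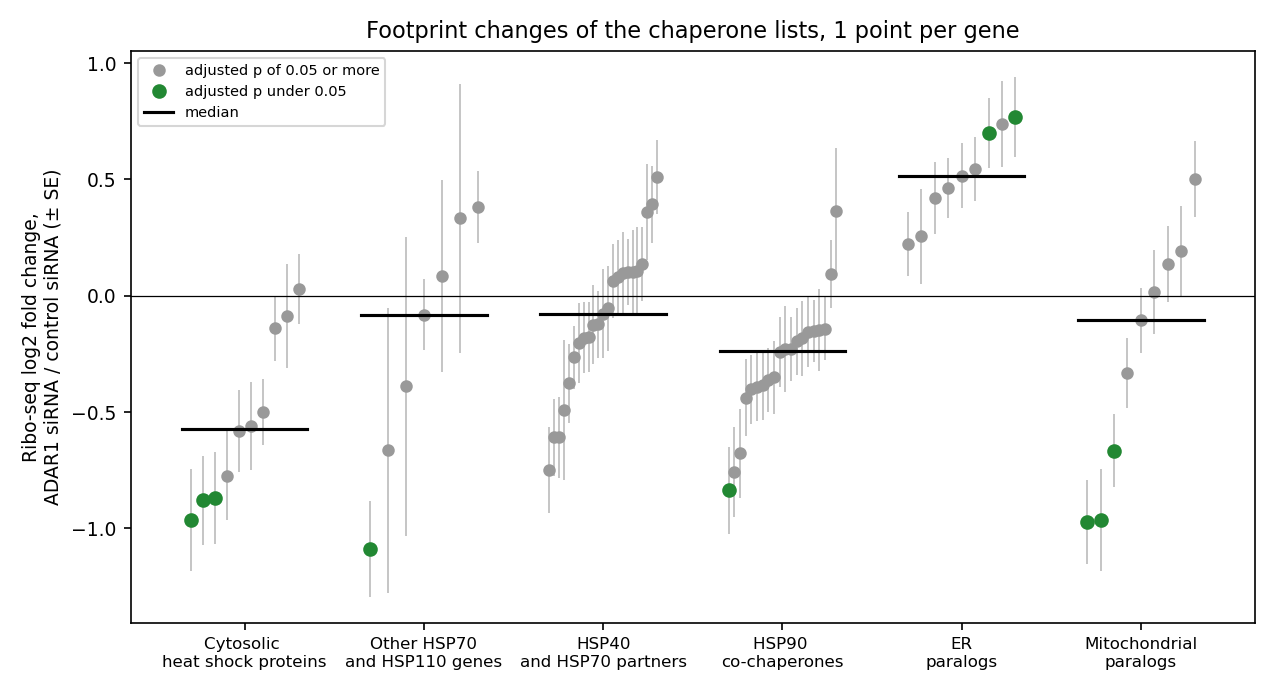
Footprint log2 fold change, ADAR1 siRNA over control siRNA, with SE bars from edgeR, 1 point per gene and ordered within each list; green points have an adjusted p under 0.05 and lines are medians. The cytosolic members have a median of -0.57 and the ER paralogs of 0.52.

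HSPA8 and HSP90AA1 were also set against their ER counterparts, library by library. HSPA5 (BiP), the ER HSP70, had 0.637 and 0.481 times the footprint TPM of HSPA8 in the controls, and 1.83 and 1.06 times after the siRNA. HSP90B1 (GRP94), the ER HSP90, had 0.894 and 0.727 times that of HSP90AA1 in the controls, and 2.70 and 1.59 times after. In both pairs the order of the 2 genes turned over in each siRNA library. HSP90B1 over HSP90AB1 was above 1 already in control replicate 1, at 1.07 and 0.777 against 2.86 and 1.86. The mitochondrial genes gave opposite directions over their cytosolic counterparts. HSPA9 over HSPA8 was lower after the siRNA, at 0.152 and 0.147 against 0.123 and 0.136. TRAP1 over HSP90AA1 was higher, at 0.0644 and 0.0645 against 0.0885 and 0.0650, only narrowly in replicate 2. The 7 pairs computed also included HYOU1 over HSPH1 and DNAJB11 over DNAJB1, both higher in footprints after the siRNA without overlap. In Input TPM the HSPA5 to HSPA8 ratio overlapped, at 0.199 and 0.195 against 0.228 and 0.176. The HSP90B1 to HSP90AA1 ratio was lower in Input, at 0.496 and 0.505 against 0.438 and 0.399. HYOU1 over HSPH1 (1.07 and 1.10 against 0.888 and 0.849) and TRAP1 over HSP90AA1 (0.0417 and 0.0416 against 0.0281 and 0.0260) were also lower there. DNAJB11 over DNAJB1 was higher in Input too, at 0.552 and 0.563 against 0.612 and 0.683. HSPA9 over HSPA8 and HSP90B1 over HSP90AB1 overlapped in Input. HSPA5 footprints themselves were 439 and 427 TPM against 600.5 and 578, and HSP90B1 footprints 558 and 544 TPM against 698 and 723, neither past the test (edgeR adjusted p = 0.0574 and 0.0676). With 2 libraries against 2, a two-sided exact permutation test of such a ratio cannot give a p under 0.33, which is what the footprint ratios of HSPA5 to HSPA8 and HSP90B1 to HSP90AA1 gave.

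Over the 8 libraries, each assay centred on its controls, the members' own profiles mostly followed their median. Pearson's r with that median was 0.994 for HSP90AB1, 0.992 for HSPA8, 0.988 for DNAJA1 and 0.979 for HSP90AA1, but 0.346 for DNAJB1, 0.247 for HSPA1A and -0.45 for HSPB1. Members are part of the median, and all genes share the same libraries, so these values are descriptions. Over 9736 genes (mean count of 50 or more in both assays), the 5 non-members closest to the median were KPNA2 (r = 1.00), RTCB, UTP18, CRNKL1 and XRCC5 (r from 0.995 to 0.997). KPNA2, an importin that carries proteins into the nucleus, had a log2 value of 0.08 in RNA and -0.89 in footprints. XRCC5, the Ku80 subunit of DNA end joining, had 0.05 and -1.08. These 5 genes were picked for likeness to that median, so their sharing its profile follows from the choice. They show only that little RNA difference with fewer footprints was not confined to the chaperones.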

How the data were processed

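RNA and footprints of MDA-MB-231 cells were measured in 8 libraries, grouped by their titles. Per the submitters' processing notes, cutadapt, Bowtie2, STAR and featureCounts were used with GRCh38 (hg38); the sources used here give no versions, settings or strand. Per the labels' protocols, lysates were spun on sucrose gradients and size-selected RNA was ligated and amplified, with no molecular identifiers named. The authors deposited an estimated count per gene without normalization, TPM, and translational efficiency as a ratio of Ribo-seq TPM to Input TPM of the same replicate number. Of 19892 gene numbers 19669 matched a RefSeq symbol.

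Estimated counts (87.0% to 90.1% whole per library, within 1e-06) were rounded and tested across all genes with edgeR 4.0.16 in R 4.3.3 (TMM, filterByExpr, quasi-likelihood, two-sided, Benjamini-Hochberg at 0.05): 4 libraries per assay, and all 8 for the interaction. No replicate pair agreed within sampling noise, and the pairs differed in spread. The mean Poisson chi-square per gene between replicates was 1.90 for control Input and 16.9 for ADAR1 siRNA Input. It was 7.05 for control Ribo-seq and 32.7 for ADAR1 siRNA Ribo-seq. Alternatives were DESeq2 1.42.0, limma-voom 3.58.1, other scalings and filters, a replicate block, 1 fit of all libraries, HSPA1A and HSPA1B summed, TMM-scaled CPM for the family's summed level, and each library left out. The code was tested on simulated data with the same spread in all libraries, so the unequal spread of these replicate pairs was not covered.

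Members and lists were chosen with earlier results of these data known. Named were all members, ADAR, listed genes with an adjusted p under 0.05 in any comparison, and the 2 of smallest p per list and comparison, and the 5 genes of most similar profile; HSPA5, HSP90B1 and HSPE1 were named as counterparts after their values were seen. Of 115 listed genes 113 were in the table used here.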

Additional observations from a re-analysis of the deposited data

How the results depend on the processing

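Counts of called members varied with the setting. In RNA (0 called) DESeq2 gave 3, the replicate block 2, and leaving out 1 library 0 to 10. In footprints (3) no filter gave 7, DESeq2 6, limma-voom 1, the replicate block 7, 1 fit of all 8 libraries 7, and leaving out 1 library 0 to 8. In translational efficiency (0) no filter gave 6, DESeq2 6, the replicate block 5, a replicate block of the same siRNA and number 7, and leaving out 1 library 0 to 8. The labels do not say that replicate numbers pair libraries; replicate differences correlated at 0.208 between the 2 Ribo-seq groups, 0.0310 between the Input groups, and between Input and Ribo-seq at 0.411 for ADAR1 siRNA and 0.0072 for control siRNA. The cause of these differences was not tested. Over all genes, 842 of 15536 were called lower in footprints without a filter. With the replicate block it was 1064 of 12000, and in 1 fit 870 of 12953. In translational efficiency, 417 of 16931 were called lower without a filter. It was 203 of 12953 with the replicate block and 496 of 12953 with that of the same siRNA and number. In RNA, the replicate block called 1095 of 12644 in either direction.

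Calls over all genes varied too: RNA 32 against 95 without a filter, 73 at a mean count of 50, 436 by DESeq2, 1095 with the block, 11 by upper-quartile scaling and 14 in 1 fit; footprints 425 against 1693, 978, 250 by limma-voom, 2102 with the block and 1936 in 1 fit; translational efficiency 6 against 854, 967, 448 and 1169 with the blocks, 2 at a mean count of 50 and 0 by limma-voom. The share of calls that were higher was 52.9% in footprints, against 63.9% with upper-quartile scaling, 44.9% with RLE, 40.0% by DESeq2 and 47.2% by limma-voom; in RNA it was 31.3%, against 45.5% of the 11 calls with upper-quartile scaling.

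Signs turned for HSPB1, HSPA1A and DNAJB1, each within about its SE of 0 in the value reported. HSPB1 footprints were -0.0062 with RLE scaling and with DESeq2, and -0.12 to 0.12 with 1 library left out. HSPA1A footprints ran from -0.54 to 0.23 with 1 library left out. DNAJB1 efficiency was -0.028 at a mean count of 50 and -0.087 to 0.072 with 1 library left out; HSPA1A efficiency was -0.47 with HSPA1B summed and -0.19 to 0.50 with 1 library left out. HSP90AA1 had an adjusted p of 0.0507 with upper-quartile scaling in edgeR. Summed Input level was 110.8% of control as TMM-scaled CPM against 110.2% as TPM.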
